A study of Mus musculus with 4 samples.

Results

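The enzymes that write, maintain, oxidize and excise methylated cytosine were examined in the mouse ES cell line E14tg2a after knockdown of Rif1 by siRNA. The set was given as 9 genes: Dnmt1 and Uhrf1, which maintain DNA methylation, Dnmt3a, Dnmt3b and Dnmt3l, which set it de novo, Tet1, Tet2 and Tet3, which oxidize it, and Tdg, which excises the oxidized bases. Its members were all non-control array probes that carry one of these gene names, which gave 20 of 39411 probes with a usable spot on all 4 arrays. Each gene had 1 to 3 probes.

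One-color arrays were hybridized with Cy3-labeled cRNA made from total RNA, 4 in all and 1 per condition: untreated cells (0 h), cells given control siRNA for 72 h, and cells given siRNA against mouse Rif1 for 48 h or for 72 h. According to the methods, the Rif1 siRNA was a mixture of mRif1#2 and NC#1. All cells were kept in serum with leukemia inhibitory factor. The only control siRNA array was taken at 72 h, so it served both times of Rif1 siRNA, and at 48 h the time differs as well as the siRNA. There are no replicates, so a difference between a pair of arrays carries neither an error nor a p-value, and precision is limited by how few arrays there are. A second independent experiment that the legends mention was not analysed here.

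In mammals, DNMT1 copies methylation onto the new strand after replication, guided by UHRF1, which binds hemimethylated CpG. DNMT3A and DNMT3B methylate unmodified CpG sites, and DNMT3L is a catalytically inactive partner that stimulates them. TET proteins oxidize methylated cytosine in steps, and TDG removes the later oxidation products, which base excision repair then replaces with cytosine. Mouse ES cells in serum are known for high expression of Dnmt3b, Dnmt3l, Tet1 and Tet2 and for little Tet3.

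The array files hold the sequence of each probe and its position on mm9. Of the 20 probes, 18 carry an accession that the RefSeq gene table (GRCm38.p6) pairs with the same gene symbol. The exceptions are Tet1 probe A_55_P2123002 and Tet2 probe A_55_P2074075. An annotation of mm9 was not used here, so exon and UTR borders are not given. The probes of Dnmt1 (chr9:20711973-20712341, minus strand) and of Uhrf1 (A_66_P120074, chr17:56451668-56452321, plus strand) are 60 bases long but span 369 and 654 bases of the genome, so that each alignment holds a gap, as across an intron. Both are shown because they join separate stretches of the gene, and the capitals mark CG dinucleotides.

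Dnmt1 A_51_P195573: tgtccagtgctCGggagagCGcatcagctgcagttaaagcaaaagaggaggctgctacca
Uhrf1 A_66_P120074: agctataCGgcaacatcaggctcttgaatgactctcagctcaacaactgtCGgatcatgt

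The next set shows probes of genes that were read by 3 probes each. Tet1 probe A_55_P2123002 lies at chr10:62301856-62301915, and the Tet3 probes lie at chr6:83352743-83352802 (A_52_P491273), chr6:83319720-83319779 (A_55_P2175260) and chr6:83318731-83318790 (A_51_P199339), all on the minus strand. Tdg probe A_55_P2044091 lies at chr10:82110701-82110760 on the plus strand. Each of these 60-base sequences has at least 1 reading frame without a stop codon, and capitals again mark CG.

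Tet1 A_55_P2123002: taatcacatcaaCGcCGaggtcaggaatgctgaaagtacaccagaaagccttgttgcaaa
Tet3 A_52_P491273: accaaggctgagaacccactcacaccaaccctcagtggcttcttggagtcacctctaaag
Tet3 A_55_P2175260: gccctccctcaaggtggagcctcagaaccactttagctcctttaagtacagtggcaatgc
Tet3 A_51_P199339: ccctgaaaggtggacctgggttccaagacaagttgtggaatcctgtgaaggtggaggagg
Tdg A_55_P2044091: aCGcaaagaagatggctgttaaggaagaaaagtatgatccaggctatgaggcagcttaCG

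The 2 lowest log2 differences of member probes at 48 h were those of Dnmt3b probes A_55_P2008874 and A_55_P1975903, and the latter (chr2:153512098-153512157, plus strand) is shown from base 1 to base 38. The frame that starts at base 3 is open up to the TAG in capitals.

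Dnmt3b A_55_P1975903: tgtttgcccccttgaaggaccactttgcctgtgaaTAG

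A probe is called well above background by the Feature Extraction software, and its level is given here as the processed signal divided by the 75th percentile of its array. On all 4 arrays 18 of the 20 probes passed this call, and 1, for Tet3, passed it on none. Levels of different probes cannot be set against each other, since each probe has its own response. Spots well above background made up 58.8% to 74.1% of each array, with the higher shares on the Rif1 siRNA arrays. The targeted gene Rif1 had levels of 5.55 (untreated), 5.42 (control siRNA), 2.15 (Rif1 siRNA, 48 h) and 4.15 (Rif1 siRNA, 72 h), so its transcript was lower at both times but nearer to control at 72 h. The 7 ES cell markers (Pou5f1, Sox2, Nanog, Zfp42, Esrrb, Tdgf1 and Klf4) were well above background on every array, and 0 of them differed over 2-fold from control siRNA at either time. Of 8 markers of the 2C-like state with a probe, 7 were over 2-fold higher at both times, the exception being Zfp352, and the summed level of the 8 was 10.3, 17.1, 192 and 218 in the order of arrays above. Markers of other cell types (16 genes) had summed levels of 16.7, 14.9, 14.0 and 13.7, sums in which the brightest probes weigh most. Otx2 alone had 9.82, 8.98, 6.88 and 6.93, and the other 15 genes summed to 6.88, 5.92, 7.09 and 6.81, so that without Otx2 both Rif1 siRNA arrays lay above control siRNA. The median log2 difference of these markers was 0.23 at 72 h and 0.36 at 48 h. At 72 h, 15 were well above background on at least 1 of the 2 arrays compared, of which Elf5 gave no value. Of these 15, 3 were over 2-fold higher (Afp, Cdx2 and Gata3), beside 2.85% of all probes, with Afp as a lower bound. Gata6 and Sox17, listed with Afp as endoderm markers, were lower, at -0.34 and -0.20. Mixl1 was not well above background on any array.

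**Figure D1:**
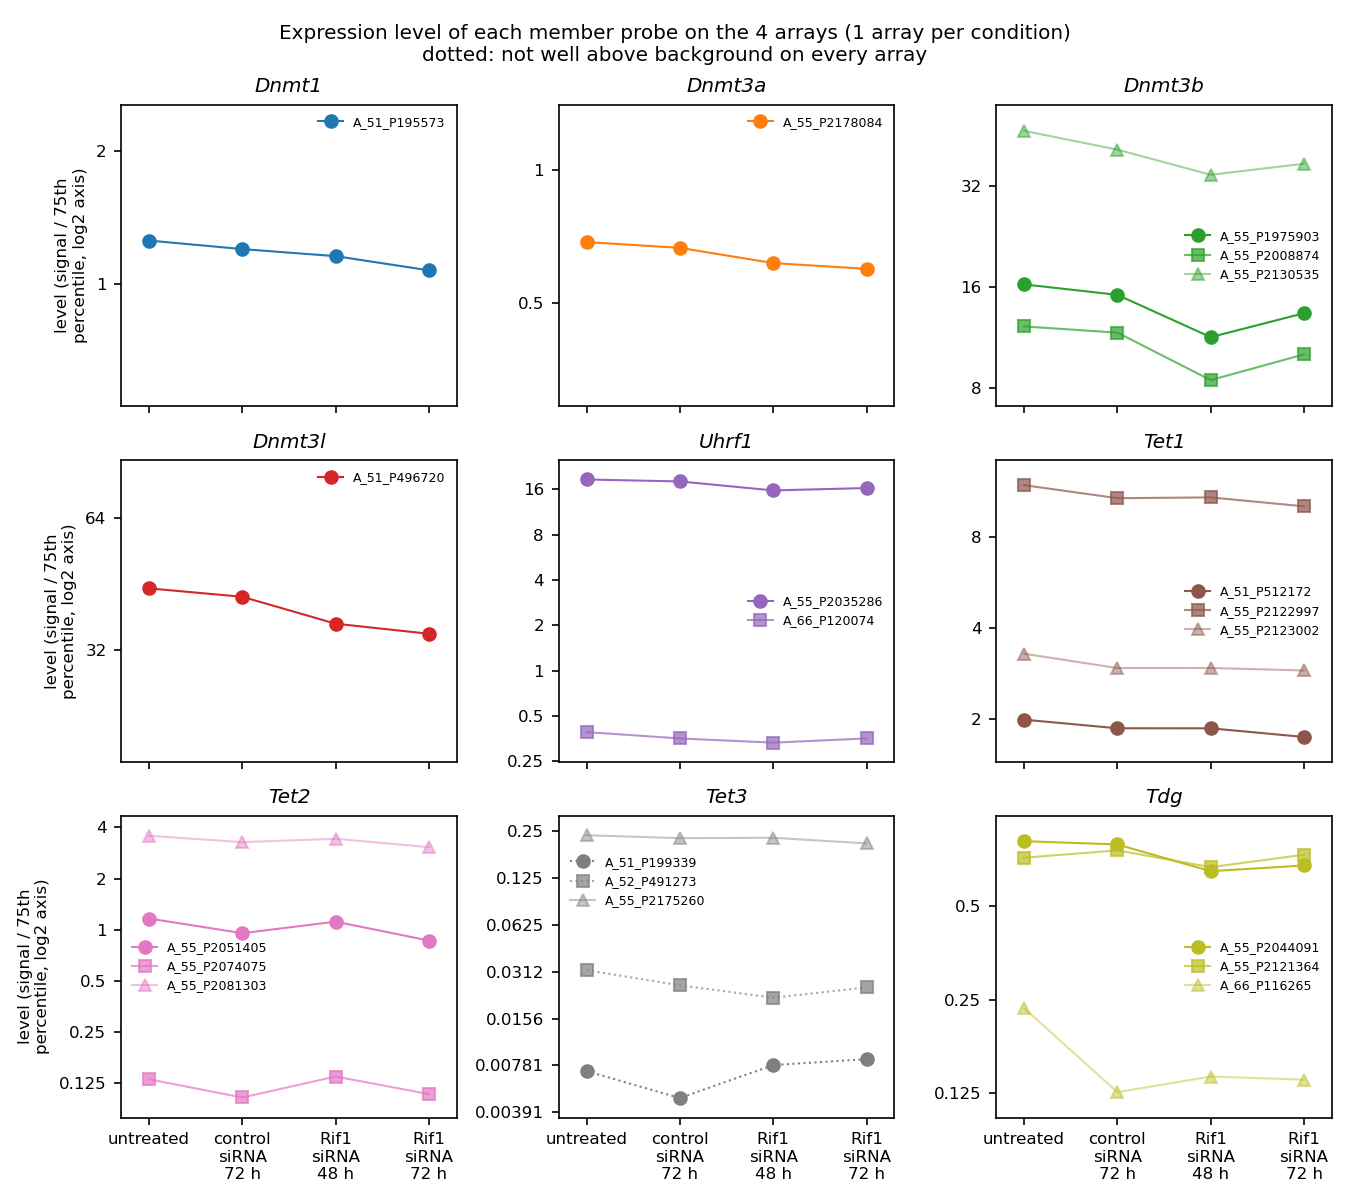
Level of each of the 20 probes (processed signal over the 75th percentile of the array, log2 axis) in untreated cells, control siRNA cells at 72 h and Rif1 siRNA cells at 48 h and 72 h, 1 array each, with 1 line per probe. The Dnmt3b lines are lowest at 48 h, and Tdg probe A_66_P116265 is at 0.235 in untreated cells and at 0.126 to 0.142 on the other arrays.

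Dnmt1 and Uhrf1 differed little between conditions. Dnmt1 had levels of 1.25 (untreated), 1.20 (control siRNA), 1.16 (Rif1 siRNA, 48 h) and 1.07 (Rif1 siRNA, 72 h). Both Rif1 siRNA arrays therefore lay below the others, by log2 differences against control siRNA of -0.05 at 48 h and -0.16 at 72 h. Uhrf1 probe A_55_P2035286 (chr17:56462770-56462829) had levels of 18.6, 18.1, 15.8 and 16.4 in the same order of untreated, control siRNA, Rif1 siRNA 48 h and Rif1 siRNA 72 h. Its log2 difference was -0.20 at 48 h and -0.15 at 72 h. The other Uhrf1 probe had levels of 0.390, 0.354, 0.332 and 0.354, and the array of 72 h lay within 0.01 of control siRNA on the log2 scale. In a bulk culture, fewer cells that express a gene and less RNA per cell cannot be told apart, here and for every gene below.

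Of the de novo enzymes, Dnmt3b was lower with Rif1 siRNA at 48 h on all 3 of its probes. Probe A_55_P1975903 had levels of 16.3 (untreated), 15.2 (control siRNA), 11.3 (Rif1 siRNA, 48 h) and 13.4 (Rif1 siRNA, 72 h). Probe A_55_P2008874 (chr2:153512991-153513050) had 12.2, 11.7, 8.44 and 10.1. Probe A_55_P2130535 (chr2:153513403-153513462) had 46.8, 41.1, 34.6 and 37.3. Each probe was thus highest in untreated cells and lowest at 48 h, and the 72 h array lay between 48 h and control siRNA. In the same order of probes, the log2 difference from control siRNA was -0.42, -0.47 and -0.25 for 48 h, then -0.18, -0.22 and -0.14 for 72 h, and the greatest of these is 1.39-fold. The 3 probes lie within the same stretch of the gene and read the same RNA, so they are not separate evidence on the condition.

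Dnmt3l, the stimulatory partner, was read by 1 probe (A_51_P496720, chr10:77526112-77526171). Its levels were 44.2 (untreated), 42.3 (control siRNA), 36.8 (Rif1 siRNA, 48 h) and 34.9 (Rif1 siRNA, 72 h). Both Rif1 siRNA arrays were below both others, with log2 differences of -0.20 at 48 h and -0.28 at 72 h, the lowest of all member probes at 72 h. With quantile normalization these became -0.09 and -0.15, and Tdg probe A_55_P2044091 was lowest at 72 h, at -0.24. With untreated cells as control, Tdg probe A_66_P116265 (-0.76) and Tet2 probe A_55_P2051405 (-0.43) lay below Dnmt3l (-0.34) at 72 h. Dnmt3a (A_55_P2178084, chr12:3914320-3914379) had 0.686, 0.666, 0.615 and 0.597. It too was lower on both Rif1 siRNA arrays, by log2 differences of -0.11 at 48 h and -0.16 at 72 h.

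The TET genes did not follow the same order of arrays. Tet1, the main TET gene of ES cells, had levels of 11.9, 10.8, 10.9 and 10.1 on probe A_55_P2122997 (chr10:62274448-62274507). Probe A_51_P512172 (chr10:62276042-62276101) had 1.98, 1.86, 1.86 and 1.74, and probe A_55_P2123002 had 3.29, 2.94, 2.95 and 2.89. On all 3 the untreated array was highest and the array of 72 h Rif1 siRNA lowest, and the log2 differences from control siRNA lay within 0.01 of 0 at 48 h and ran from -0.10 to -0.03 at 72 h.

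Tet2 was lower on both arrays harvested at 72 h than on the untreated and the 48 h arrays. Probe A_55_P2081303 (chr3:133126751-133126810) had levels of 3.57 (untreated), 3.28 (control siRNA), 3.43 (Rif1 siRNA, 48 h) and 3.06 (Rif1 siRNA, 72 h). Its neighbor A_55_P2051405 (chr3:133126905-133126964) had 1.16, 0.954, 1.12 and 0.864, and A_55_P2074075 (chr3:133176421-133176479), which lies apart from both, had 0.132, 0.103, 0.137 and 0.108. Against control siRNA, the 3 probes had log2 differences of 0.07, 0.23 and 0.41 at 48 h and of -0.10, -0.14 and 0.07 at 72 h. Since the control is from 72 h only, time and siRNA cannot be told apart at 48 h. With untreated cells in place of control siRNA, the values at 48 h became -0.06, -0.06 and 0.05 and thus near 0, and those at 72 h became -0.22, -0.43 and -0.29, all below 0. The value of 0.07 at 72 h turned to -0.04 with normexp background correction and lay within 0.01 of 0 with quantile normalization.

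Tet3 was measured in every condition by 1 of its 3 probes. Probe A_55_P2175260 had levels of 0.236 (untreated), 0.226 (control siRNA), 0.227 (Rif1 siRNA, 48 h) and 0.209 (Rif1 siRNA, 72 h), a log2 difference of -0.11 at 72 h. Probe A_52_P491273 had 0.0256, 0.0213 and 0.0248 on the siRNA arrays, with log2 differences of -0.26 at 48 h and -0.05 at 72 h. It was not well above background in untreated cells. Probe A_51_P199339 was not well above background on any array, at 0.00718, 0.00482, 0.00784 and 0.00857, and gave no fold change. The 4 values of probe A_55_P2175260 lay within 1.13-fold of each other.

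Tdg, the glycosylase, was read by 3 probes that disagreed. Probe A_55_P2044091 had levels of 0.806, 0.786, 0.646 and 0.673, with both Rif1 siRNA arrays below both others and log2 differences of -0.28 at 48 h and -0.22 at 72 h. Probe A_55_P2121364 (chr10:82112994-82113053) had 0.713, 0.753, 0.665 and 0.729, so that untreated cells lay between the Rif1 siRNA arrays. It shares a run of at least 16 bases with a probe named LOC101056559, which had levels of 21.2, 21.5, 18.8 and 19.2 in the same order of arrays. What part this has in the values of the Tdg probe was not tested. Probe A_66_P116265 (chr10:82113115-82113174) had 0.235 (untreated), 0.126 (control siRNA), 0.142 (Rif1 siRNA, 48 h) and 0.138 (Rif1 siRNA, 72 h).

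The difference of Tdg probe A_66_P116265 lay between untreated cells and all 3 siRNA arrays, and its first 30 bases are shown because its range over the 4 arrays was the greatest among member probes well above background throughout.

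Tdg A_66_P116265: cctccccactggaaacctgaggatggctta

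Its log2 difference of -0.90 between control siRNA and untreated cells was the greatest of any member probe in any comparison, a 1.86-fold lower level with control siRNA. The other Tdg probes had -0.04 and 0.08 there. Of 8049 probes with a control siRNA level from 0.1 to 1, 13 had a lower difference, which is 0.162%. The 5 probes of other genes whose values over the 4 arrays were most like those of this probe, among 22518 well above background throughout, were those of Gm805, Gm6653, Fam217b, Myl9 and Gm9992. Their Euclidean distances on the centred log2 scale were 0.0619, 0.0644, 0.0891, 0.0896 and 0.102, over 4 arrays only.

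**Figure D2:**
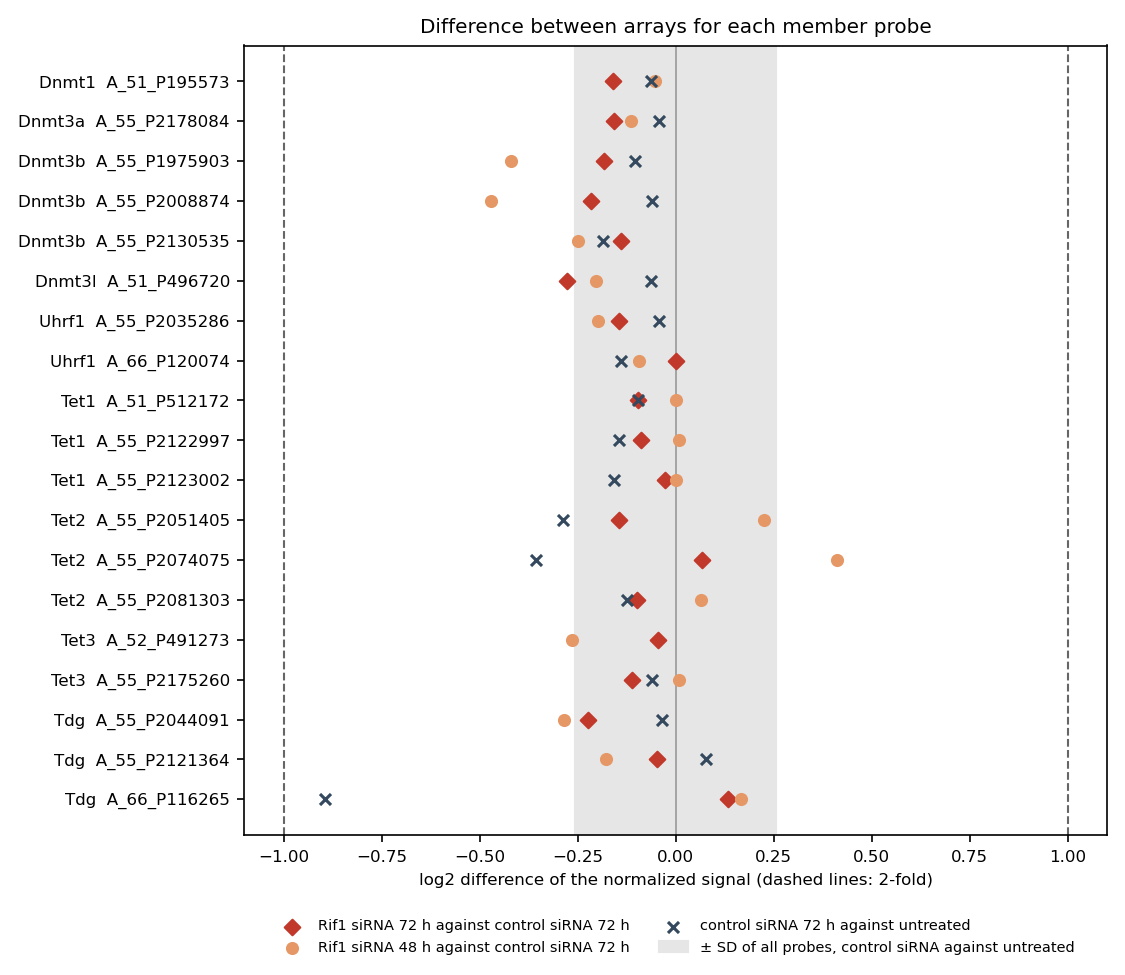
Log2 difference of the normalized signal for the 19 member probes that gave a value in at least 1 comparison, for Rif1 siRNA at 72 h and at 48 h against control siRNA and for control siRNA against untreated cells. The gray band is the SD of 0.256 over all probes between control siRNA and untreated cells, the dashed lines are 2-fold, and all points lie between -0.90 and 0.41.

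None of the member probes with a value differed over 2-fold in any comparison. At 72 h against control siRNA, 19 member probes gave a value, and the counts of probes higher and lower by more than 2-fold were 0 and 0, beside 2.85% and 1.54% of all 29181 probes tested. Over 1.5-fold, in either direction, there were also 0, beside 8.35% of all probes. At 48 h the counts of 19 were again 0 and 0, beside 3.34% higher and 1.78% lower among all probes, and 0 over 1.5-fold, beside 10.9%. For control siRNA against untreated cells 19 were tested, of which 18 gave a value and Tet3 probe A_52_P491273 gave none. Of the 19, 0 were over 2-fold higher or lower, beside 0.931% and 1.75%. Over 1.5-fold, 1 was lower, the Tdg probe A_66_P116265, beside 5.64% over 1.5-fold in either direction. Between 72 h and 48 h of Rif1 siRNA, 0 of 19 were over 2-fold higher or lower, beside 0.979% and 1.41%, and 0 were over 1.5-fold, beside 6.13%. Against these backgrounds, 0 calls among 19 probes are no result particular to the enzymes.

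Most member probes were slightly lower with Rif1 siRNA, as were most probes of the array. At 72 h against control siRNA, 17 of 19 member probes were below 0, with a median log2 difference of -0.11, beside 63.1% of all 24308 measured probes and a median of -0.07. At 48 h 12 of 19 were below 0, with a median of -0.09, beside 61.3% and -0.07. Under the scalings and background correction tried, 17 to 18 of 19 were below 0 at 72 h and 12 to 15 at 48 h, where Tet1 and Tet3 probes within 0.01 of 0 turned. With untreated cells in place of control siRNA, 17 of 18 were below 0 at each time, with medians of -0.23 at 72 h and -0.16 at 48 h. The share of all probes below 0 is not given for these scalings or for untreated cells as control. These counts are therefore not read as particular to the members. Control siRNA against untreated cells gave 17 of 18 below 0 and a median of -0.10, beside 52.4% and -0.01. The members were therefore also lower with control siRNA than without siRNA. In size, the median absolute log2 difference of the members was 0.133 at 72 h and 0.179 at 48 h, beside 0.156 and 0.175 for all probes.

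The downward shift was larger for bright probes, which bears on Dnmt3b, Dnmt3l, Uhrf1 and Tet1. Among 3216 probes with a control siRNA level of 10 or more, a limit chosen after the values were seen, 89.6% were below 0 at 72 h with a median log2 difference of -0.15, and 87.2% at 48 h with a median of -0.15. The 6 member probes of this class had medians of -0.16 at 72 h and -0.23 at 48 h. The place of a member is given as the share of bright probes with a lower difference. Dnmt3l was at 8.58% at 72 h and 26.0% at 48 h. The Dnmt3b probes A_55_P1975903, A_55_P2008874 and A_55_P2130535 were at 38.7%, 26.2% and 55.0% at 72 h, and at 0.995%, 0.56% and 11.8% at 48 h. For control siRNA against untreated cells the same probes were at 10.9%, 23.9% and 1.99%, and all 6 bright member probes lay below the median of the class. Uhrf1 probe A_55_P2035286 was at 52.7% at 72 h and 27.8% at 48 h, and Tet1 probe A_55_P2122997 was above most of the class, at 70.9% and 88.1%. Of the 8 member probes with a level from 0.1 to 1, the lowest place at both times was that of Tdg probe A_55_P2044091, at 19.6% at 72 h and 16.2% at 48 h. The other Tdg probes, A_55_P2121364 and A_66_P116265, were at 50.4% and 77.5% at 72 h and at 27.9% and 75.8% at 48 h, so that Tdg had no common place. Tet2 probe A_55_P2074075 was at 69.2% at 72 h and at 90.4% at 48 h, the highest of these 8 at 48 h.

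**Figure D3:**
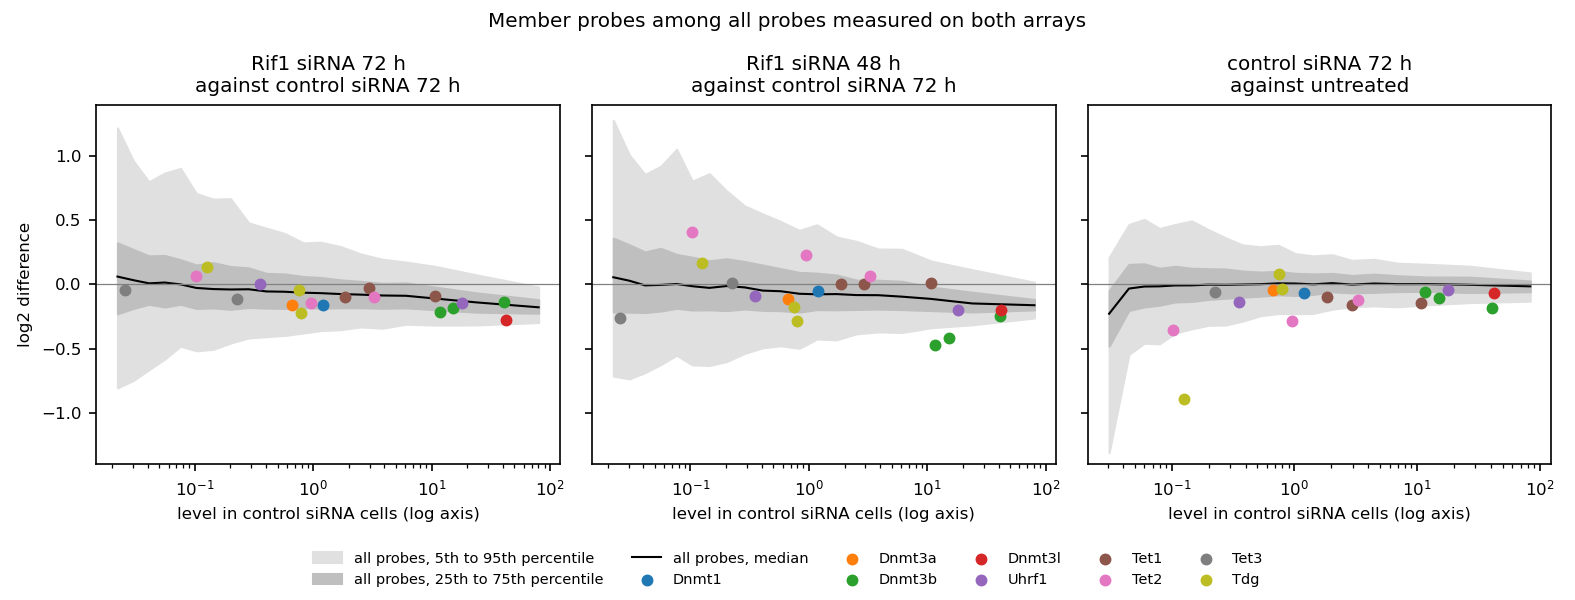
Log2 difference against the level in control siRNA cells (log axis), with the median, the 25th to 75th and the 5th to 95th percentile of all measured probes in 20 bins of equal size (black line and gray bands) and the member probes in color, for 3 comparisons. The black line falls with brightness in both Rif1 siRNA panels, and the Dnmt3b points at -0.42 and -0.47 lie below the gray bands at 48 h. For control siRNA against untreated cells, the Tdg point at -0.90, a Tet2 point at -0.29 and a Dnmt3b point at -0.19 lie below them.

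The Rif1 siRNA arrays were then set against the arrays without it. Of 18 member probes well above background on all 4 arrays, 0 had both Rif1 siRNA arrays above both others, beside 18.1% of 22518 probes, and 10 had both below both others, beside 43.3%. The 10 were those of Dnmt1, Dnmt3a and Dnmt3l, all 3 of Dnmt3b, both of Uhrf1, Tet1 probe A_51_P512172 and Tdg probe A_55_P2044091, where Tet1 and Uhrf1 probe A_66_P120074 differed from the nearest other array by less than the digits given above. A fit of these 2 arrays against 2 with limma and Benjamini-Hochberg adjustment over 22518 probes called 534 probes, which is 2.37%, and 0 of the 18 member probes. Each side of this fit holds unlike conditions, so its spread is not that of replicates. The adjusted p from limma ranged from 0.129, for Tdg probe A_55_P2044091, to 0.843, for Tet2 probe A_55_P2074075. At an unadjusted p under 0.05 there were 6 of 18 member probes, beside 26.5% of all probes. The 6 fell to 0 without the untreated array, 4 without control siRNA, 1 without the 48 h array and 3 without the 72 h Rif1 siRNA array, and were 3 with quantile normalization, 2 of 20 with all non-control probes and 7 with normexp. These counts do not show that the enzymes were equal between conditions.

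The other genes of the pathway are given by lists of 7 to 16 genes, for which 2.85% higher and 1.54% lower at 72 h over all probes amounts to fewer than 1 gene a list, so that a count of 0 or 1 says nothing particular about these genes. Of 14 partners and regulators of the methyltransferases, 0 were over 2-fold higher or lower at 72 h, with a median log2 difference of -0.06, beside -0.07 for all probes. This median turned to 0.05 with quantile normalization and was -0.11 with untreated cells as control. At 48 h 1 was over 2-fold higher, Ctcfl, a germline paralog of Ctcf, which stayed under 2-fold with normexp or quantile normalization. Ctcfl had levels of 0.0746 (untreated), 0.0766 (control siRNA), 0.162 (Rif1 siRNA, 48 h) and 0.138 (Rif1 siRNA, 72 h), and both Rif1 siRNA arrays were above both others, with log2 differences of 1.08 at 48 h and 0.85 at 72 h. It was called in the limma fit with an adjusted p of 0.0296. That fit called 0 probes of any gene without the 48 h array and 0 without the 72 h Rif1 siRNA array, when that side holds 1 array, so the loss of the call says nothing on the size of the difference. Dppa3, which restrains Uhrf1, had log2 differences of -0.03 at 48 h and 0.37 at 72 h. Prdm14, a repressor of Dnmt3b, had 0.64 and 0.32, and Uhrf2 had 0.07 and 0.34.

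The partners of TET proteins and the enzymes of their cofactors gave 9 measured genes, of which 0 passed 2-fold at 72 h, with a median of -0.19, or -0.11 with quantile normalization. The most different was Hmces, named for its binding to oxidized cytosine in ES cells, with levels of 42.2, 34.9, 27.2 and 23.4 and log2 differences of -0.36 at 48 h and -0.58 at 72 h. Cxxc5, a CXXC protein, had -0.35 and -0.38, Dppa4 -0.31 and -0.31, and Sall1 0.02 and -0.23. In the excision repair list 0 of 16 genes passed 2-fold at 72 h, with a median of -0.21, which was -0.12 with untreated cells as control, and control siRNA against untreated cells gave a median of 0.11. The glycosylase Neil1 had log2 differences of -0.47 at 48 h and -0.44 at 72 h, and the repair polymerase Polb had -0.44 and -0.37. For both genes, and for Apobec1 with -0.46 and -0.41, untreated cells were below control siRNA cells. In the order of untreated, control siRNA, Rif1 siRNA 48 h and 72 h, Apobec1 had levels of 0.406, 0.544, 0.395 and 0.409. Both Rif1 siRNA arrays of Apobec1 thus lay near untreated cells. Neil1 had 0.542, 0.656, 0.473 and 0.483, and Polb 0.938, 1.07, 0.788 and 0.827. Gadd45a had log2 differences of -0.30 at 48 h and -0.36 at 72 h.

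Of 7 readers of methylated CpG, 0 passed 2-fold at 72 h, with a median of -0.12. Zbtb4 had levels of 0.148, 0.0739, 0.0446 and 0.0642, so the lower level lay on all siRNA arrays. Its difference of control siRNA against untreated cells was over 2-fold, at -1.00, and was under 2-fold with normexp or quantile normalization. With untreated cells in place of control siRNA, Zbtb4 was also over 2-fold lower at 72 h and at 48 h. Mbd1 had log2 differences of 0.52 at 48 h and 0.19 at 72 h, Zbtb38 -0.50 and -0.31, and Mbd3 -0.19 and -0.16. The list of S-adenosylmethionine supply and recycling gave 8 measured genes of 9, with 0 over 2-fold at 72 h and a median of -0.06, which turned to 0.015 with quantile normalization and was -0.02 with untreated cells as control. Log2 differences at 72 h were -0.26 for Shmt2, -0.24 for Tdh and 0.11 for Mtr.

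Germline genes that DNA methylation is known to silence in somatic cells were examined because their expression responds to loss of these enzymes. Of 14 such genes, 2 were over 2-fold higher at 72 h, Dazl and Slc25a31, and 0 were lower, beside 2.85% and 1.54% of all probes. With untreated cells in place of control siRNA, 3 were higher at 72 h, and 1 was over 2-fold lower at each time, Hormad1. At 72 h, 1 was higher with normexp background correction and 4 with the other detection flag. At 48 h 3 were higher, with Asz1 added as a lower bound, and 0 were lower, beside 3.34% and 1.78%. Asz1 was named after its values were seen. The median of the 12 measured genes was 0.42 at 72 h and 0.41 at 48 h, beside the median of -0.07 for all probes at both times. With untreated cells as control it was 0.25 at 72 h and 0.38 at 48 h. Dazl, an RNA-binding protein of germ cells, had levels of 0.406 (untreated), 0.274 (control siRNA), 0.917 (Rif1 siRNA, 48 h) and 0.828 (Rif1 siRNA, 72 h). Slc25a31, a testis ADP/ATP carrier, had 0.112, 0.113, 0.280 and 0.253. For both genes the Rif1 siRNA arrays were above the others, with log2 differences at 48 h and 72 h of 1.74 and 1.59 for Dazl and of 1.30 and 1.15 for Slc25a31.

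Hormad1, a meiotic chromosome protein, had the opposite order, at 0.429, 0.339, 0.211 and 0.196, with log2 differences of -0.68 at 48 h and -0.79 at 72 h. Sycp1, of the synaptonemal complex, had 0.86 and 0.72. In the limma fit, 2 of 12 germline genes were called, beside 2.37% of all probes, Slc25a31 with an adjusted p of 0.00939 and Mael, a gene picked after its values were seen, with 0.0351. Dazl had 0.0723 and Hormad1 0.0709. Mael had levels of 3.32, 3.29, 4.78 and 4.88, with log2 differences of 0.54 at 48 h and 0.57 at 72 h. As for Ctcfl, neither gene was called once a Rif1 siRNA array was left out and that side held 1 array. The 2C-like state markers, whose summed levels are given above, moved on the same arrays, and what part such cells have in the germline values was not tested. The methylation of these genes was not measured on the arrays.

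**Figure D4:**
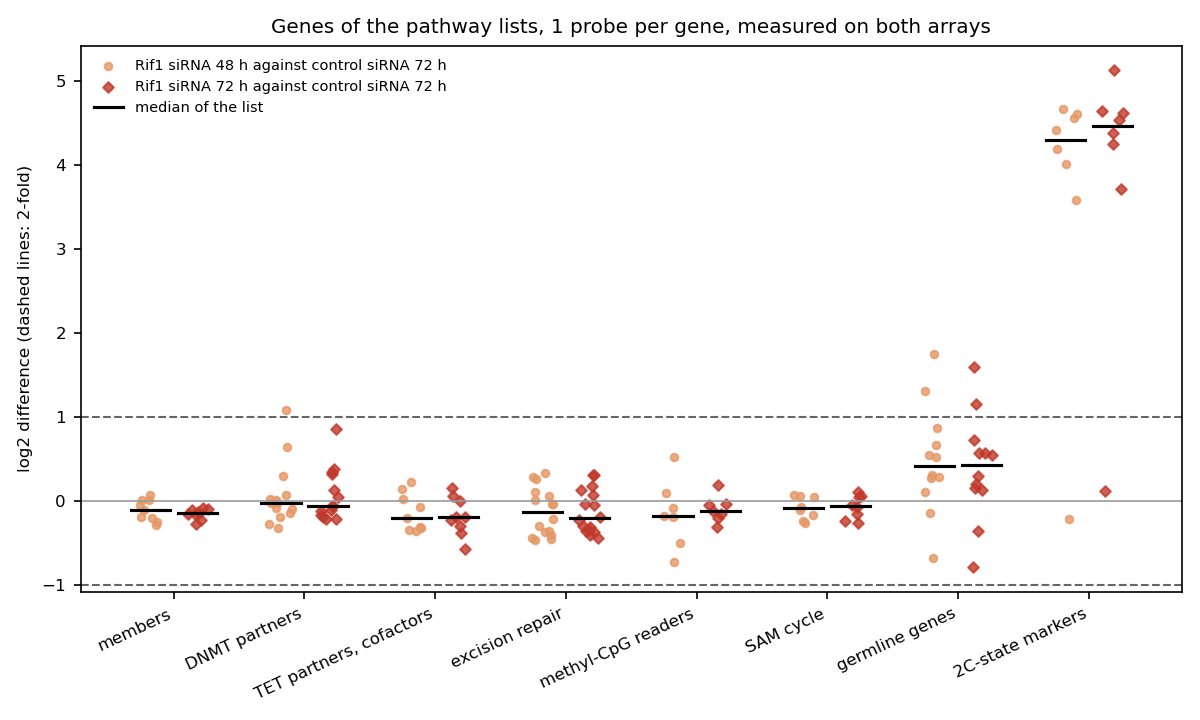
Log2 differences of Rif1 siRNA at 48 h and at 72 h against the shared control siRNA array for each measured gene of 8 lists, with 1 probe per gene, where black bars are the medians and dashed lines are 2-fold. The members lie between -0.28 and 0.07, the median of the germline genes is 0.42 at 72 h, and 7 of the 8 markers of the 2C-like state lie above 3.5.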

How the data were processed

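Cy3-labeled RNA of 4 conditions was measured on 1 slide of one-color arrays, so no batch could be examined. The authors deposited the spot intensity as processed by Agilent Feature Extraction 11.5.1.1 (version from the submitters' processing notes), which subtracts background and detrends each array, with flags and mm9 positions. A second deposited table holds the signals as a ratio, on a linear scale, with the 75th percentile as its denominator. Here, log2 of the processed intensity minus that percentile over non-control spots was computed, without outlier spots, and spots of one probe were averaged. A probe dim on one array was given a lower bound, and one dim on both had no fold change. R 4.3.3 with limma 3.58.1 and Python 3.11.15 with pandas 2.3.3 were used.

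The pairs of arrays were compared without a test, as each condition has 1 array. The fit of 2 arrays against 2 used limma with Benjamini-Hochberg adjustment. It was tested on simulated data, but no outcome of that is given here. From each pathway list, 1 probe per gene (the brightest) was used, and at most 4 genes were named, those most different at 72 h, plus genes over 2-fold at both times; 1 gene so chosen is not reported here. Marker lists and members were named as given. Members and lists were chosen with earlier results of these data known. Alternatives were quantile normalization, normexp (offset 50), median scaling, the deposited ratios, outlier spots kept, another detection flag, a 1.5-fold threshold, untreated cells as control and, for limma, all probes and leaving out each array. The classes of brightness use the control array, which is also one side of the comparison.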

Additional observations from a re-analysis of the deposited data

Results flagged for a closer look

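For 5 of 19 member probes and for 13 of 66 measured genes of the pathway lists, Rif1 siRNA at 48 h and at 72 h lay on opposite sides of the shared control siRNA array, beside 20.2% of all 24241 probes measured at both times, so that the count is nothing particular to the members. The difference between the times was not tested, since each has 1 array. As the log2 difference of 72 h against 48 h, it was -0.10 for Tet1 probe A_55_P2122997 and -0.028 for Tet1 probe A_55_P2123002. It was -0.37 for Tet2 probe A_55_P2051405, -0.16 for Tet2 probe A_55_P2081303 and -0.12 for Tet3 probe A_55_P2175260. Of the 13 list genes, whose values ran from -0.42 to 0.40, 3 are described above: Dppa3 had 0.40, Sall1 -0.24 and Tdh -0.29. Of these 8 values for probes and genes named, 5 are smaller in size than 0.256, the SD over all probes between control siRNA and untreated cells. With untreated cells as control, all 5 member probes lay on the same side at both times, below 0, and the share over all probes is not given for that control. The 48 h values of both Tet1 probes and of the Tet3 probe lay within 0.01 of 0 and so had no settled side. A control siRNA array of 48 h was not analysed here.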

How the results depend on the processing

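The count of member probes over 2-fold was 0 in each of the 4 comparisons under every background correction, scaling and detection flag tried, and in the 2 comparisons of Rif1 siRNA with untreated cells as control. It moved only with the 1.5-fold threshold, to 1 lower probe for control siRNA against untreated cells. All 75 log2 differences of member probes moved by less than 0.256, the SD of all probes between control siRNA and untreated cells, under normexp, quantile normalization, median scaling, the deposited ratios, the other flag and outlier spots kept. With untreated cells as control 6 of 36 moved by more, those of Tet2 probes A_55_P2051405 (-0.43 at 72 h, -0.06 at 48 h) and A_55_P2074075 (-0.29 and 0.05) and of Tdg probe A_66_P116265 (-0.76 and -0.73). In the limma fit 0 member probes were called under any setting, while calls over all probes were 689 with normexp, 518 with quantile normalization and 121 with all non-control probes, beside 534. Leaving out 1 array gave 0 to 0 member calls, with 359 calls over all probes without the untreated array, 447 without control siRNA, and 0 without either Rif1 siRNA array, where 1 side of the fit holds 1 array. Of the list counts, germline genes over 2-fold higher at 72 h were 1 with normexp and 4 with the other flag. With that flag, 1 TET partner or cofactor was over 2-fold lower for control siRNA against untreated cells. Ctcfl at 48 h, and Zbtb4 for control siRNA against untreated cells, were no longer over 2-fold with normexp or quantile normalization. The 1.5-fold threshold moved 7 of 48 list counts. Over 1.5-fold against control siRNA, germline genes were 3 higher and 1 lower at 72 h, and 5 higher and 1 lower at 48 h. Methyltransferase partners were 1 higher at 72 h and 2 at 48 h, and 1 reader was lower at 48 h. Between 72 h and 48 h of Rif1 siRNA, 1 germline gene was lower. With untreated cells as control, 1 germline gene (Hormad1) and 1 methyl-CpG reader (Zbtb4) were over 2-fold lower at both 72 h and 48 h, beside 0 with control siRNA. List medians at 72 h that turned above 0 with quantile normalization were those of the methyltransferase partners (0.05) and of S-adenosylmethionine supply (0.015), and at 48 h that of the partners (0.01). No paired analysis was possible because no condition holds more than 1 array. Dim probes, such as Tet3 probes A_52_P491273 and A_51_P199339, were limited by signal over background.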
